A study of Mus musculus with 45 samples.

Results

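In Ter119+ erythroblasts from mice whose Stag2 gene was either kept (WT) or deleted (KO), the nuclei of cluster C10 from the KO libraries were compared with the nuclei of cluster C11 from the WT libraries. The cluster and the genotype of each nucleus were taken from the authors' deposited table of nuclei. The comparison held 6579 of the 34073 nuclei of the deposited gene score table. KO C10 supplied 2972 of them, with 1045, 814 and 1113 nuclei in KO replicates 1, 2 and 3. WT C11 supplied 3607, with 1036, 953 and 1618 in WT replicates 1, 2 and 3. C10 was 99.93% KO and C11 99.94% WT, and the 2 WT nuclei of C10 and the 2 KO nuclei of C11 were left out. All but 7 of the C10 and 1 of the C11 nuclei belonged to the class that the authors called Int, beside which they named an Early and a Late class.

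Of the 45 samples of the series, 6 were used: the chromatin accessibility (ATAC) side of single-nucleus multiome libraries, 3 WT and 3 KO. The cells had been sorted on Ter119, a marker that red cell precursors carry on their surface. Both genotypes had received pIpC and were sampled 6 to 8 weeks after its last dose; pIpC is a synthetic double-stranded RNA that is used to switch on interferon-driven Cre and itself induces interferon. The Cre driver, the deleted exons, the age and sex of the mice and the number of mice behind a library are not given in the sources used here, so p-values measure the spread between these 6 libraries. The 2 clusters were drawn by the authors on these same nuclei, and genotype and cluster are nearly the same label; an adjusted p here measures the spread between libraries and not the choice of clusters.

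The STAG2 protein belongs to cohesin, a ring-shaped complex that extrudes chromatin loops and so shapes contacts between enhancers and promoters, and STAG1 is its paralogue. Erythroblasts are the nucleated precursors of red cells. They mature under erythropoietin, which signals through STAT5, and under the transcription factors Gata1, Tal1 and Klf1, which open the genes for globin, heme synthesis, iron uptake and the membrane skeleton. Gata2 is replaced by Gata1 at many of its sites as cells enter this path. The quantity compared is the gene score, an accessibility signal that adds up ATAC fragments in and around a gene. It measures open chromatin and not expression, and neighbouring genes can share fragments. Whether scores allow for gene length is not given in the sources used here, so levels of different genes are not compared. For each library the scores of its nuclei were averaged and scaled to a sum of 1000000 over the 24333 genes. In every listing below, 3 values stand for replicates 1, 2 and 3. A log2 difference is KO less WT on the log2(score + 1) scale, which understates changes of low scores. Positions are on mm10.

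Depth and most quality measures differed by less than the spread between libraries. The median nucleus had 14982 ± 747 fragments in WT and 15411 ± 600 in KO (SD of the library medians, n = 3 each; exact permutation test, two-sided, p = 0.6). The libraries held 12233917 to 24490059 fragments in these nuclei. Enrichment of fragments at transcription start sites was 33.2 ± 2.32 in WT and 33.3 ± 0.174 in KO (exact p = 0.8), and 56.7% ± 3.07 and 57.4% ± 0.675 of fragment ends lay in peaks (exact p = 0.8). Long fragments that span nucleosomes, set against short nucleosome-free ones (the nucleosome ratio), stood at 0.784 ± 0.0611 in WT and 0.887 ± 0.0377 in KO, with no overlap of the library medians (exact p = 0.1, the smallest that 3 against 3 allows, and 0.5 adjusted over 5 measures). By the mean over nuclei the libraries overlapped, WT replicate 1 at 0.8498 above KO replicate 3 at 0.8487 (exact permutation p = 0.2). The part of this ratio in the results below was not tested. The median doublet score was 0 in every library but KO replicate 2, where it was 1.37 (exact p = 1.0); its mean over nuclei was 0.983 ± 1.03 in WT and 3.71 ± 1.77 in KO (exact p = 0.2). Between libraries, 32 cell barcodes were shared by nuclei of this comparison. The nuclei made up 18.2% ± 4.33 of a WT library and 20.6% ± 2.61 of a KO library (exact p = 0.5).

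Whether the 2 clusters were at a like stage was checked first. A stage score was built from nuclei outside C10 and C11, as the mean log2 gene score of 200 genes that were higher in Late than in other Int nuclei less that of 200 genes that were lower, all with a KO-WT difference under 0.2 there. The score was 0.325, 0.268 and 0.380 in WT C11 and 0.467, 0.465 and 0.432 in KO C10. Every KO library stood further toward Late than every WT library, by 0.131 on the log2 scale (0.324 ± 0.0558 against 0.455 ± 0.0197; two-sided exact permutation p = 0.1, again the lowest this design can give). With stage genes chosen without the limit on the KO-WT difference the gap was 0.101 and the groups overlapped, WT replicate 3 at 0.343 above KO replicate 3 at 0.318 (exact permutation p = 0.2). With 50 genes each way in place of 200 it was 0.164, from 0.458 to 0.596 in WT and from 0.665 to 0.704 in KO. The gap of 0.131 was 8.1% of the distance between WT C11 and WT Late nuclei, which scored 1.93 ± 0.0706. On the way from another pair of Int clusters (C8 in KO, C9 in WT) to Late, the WT libraries stood at 16.0%, 16.3% and 16.1% and the KO libraries at 20%, 19.7% and 17.7%. In nuclei drawn to the same distribution of the per-nucleus stage share, the gap was 0.0781. Every KO library still stood above every WT library there, at 0.363, 0.326 and 0.420 in WT and 0.460, 0.457 and 0.426 in KO. In these nuclei 4648 genes were called beside 4708 in all nuclei, with 4349 genes called in both and 0 of these in opposite directions.

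**Figure D1:**
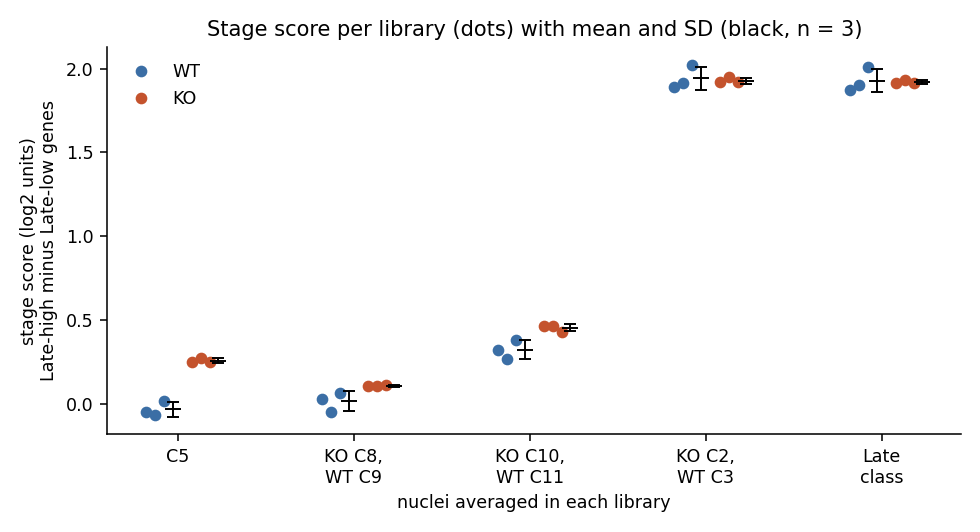
Stage score of each library (y axis, log2 units) in 5 sets of nuclei (x axis); dots are libraries, black marks the mean and SD of 3. WT C11 lay at 0.268 to 0.380 and KO C10 at 0.432 to 0.467, both far below the Late nuclei at 1.87 to 2.01.

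The erythroblast label was checked against its markers. Of 12 markers, 10 were in the score table, and Hbb-bt and Ahsp were not analysed here. All 10 had scores above 0 in both groups, among them Slc4a1 (band 3, the anion exchanger) with means of 367.5 in WT C11 and 358.7 in KO C10, Klf1 with 255 and 224 and Tfrc with 169 and 145. Markers of other cell types were not at 0 either, so presence alone does not set the label apart. Whether these scores are per length is not given in the sources used here.

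The targeted gene was examined before the others. Stag2 (chrX:42149412-42277186, plus strand) had gene scores of 56.2, 58.1 and 62.05 in WT C11 and 54.6, 57.2 and 56.4 in KO C10. The libraries overlapped, with a log2 difference of -0.067 (SE 0.054, adjusted p = 0.429); it reached -0.19 under median centring, the only alternative where it passed the threshold (adjusted p = 0.0455, range over its alternatives 0.0455 to 0.934). Because the score adds fragments over the whole gene and its surroundings, loss of an exon need not lower it, and it is no check of the genotype labels. Stag1 (chr9:100643623-100958544, plus strand) scored 145, 139 and 138 in WT C11 and 124, 125 and 124 in KO C10. Its 3 KO libraries lay below its WT libraries, with a log2 difference of -0.18 (SE 0.0411, adjusted p = 0.00166), a call that was lost without a variance trend and over all Int nuclei (range of adjusted p over its alternatives 0.00114 to 0.0872).

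Accessibility differed between KO C10 and WT C11 at many genes, mostly by little. Of 19519 genes with a mean score of at least 5, 4708 passed an adjusted p of 0.05 (24.1%, limma with Benjamini-Hochberg adjustment over all tested genes). In KO C10 2697 were higher (13.8%) and 2011 lower (10.3%), and over all tested genes the median log2 difference was -0.014. The 3 KO libraries lay wholly above or below the 3 WT libraries at 7105 genes (36.4%). The median size of the called differences was 0.301, and 114 genes rose but only 8 fell by 2-fold or more. Joining called genes of 1 direction that started less than 100 kb apart into loci gave 1465 loci that rose and 1133 that fell. Of the genes named below, 11 had a called neighbour within 100 kb that moved the same way by as much or more, among them Gata1 (Glod5, -0.37), Klf1 (Syce2, -0.65), Slc25a39 (Rundc3a, -0.66), Csf2rb2 (Ncf4, 0.77), Vpreb1 (Rpl31-ps12, 0.67) and Klrb1c (Klrb1b, 0.68), and whether these scores hold the same fragments was not tested. The calls moved with the level: 3.14%, 17.5%, 40.5% and 35.3% of tested genes were called from the lowest to the highest of 4 equal classes of mean score. Among the called genes, 58.2%, 80.0%, 64.2% and 38.1% were higher, in the same order. The highest class, with means from 70.0, had 656 of 4880 tested genes higher and 1067 lower. The higher share of all calls, 57.3%, became 22.9% of 6580 calls when libraries were centred on their median gene, which lowered the median over tested genes to -0.141. Each gene list below is therefore followed, in brackets, by its numbers of gains and losses under median centring, then without a variance trend, then over all Int nuclei, and its counts outside the brackets are to be read against the 13.8% higher and 10.3% lower of all tested genes. These shares are not matched on score level, so a list of high-scoring genes has other shares at its own level. The bracketed counts have shares of their own: 7.73% of all tested genes were higher and 26% lower under median centring, 9.42% and 4.46% without a variance trend, and 12.7% and 7.1% over all Int nuclei. The groups of all Int nuclei are not alike in depth, with library medians of 12877, 12671 and 10121 fragments in WT and 14532, 13911 and 14998 in KO. The part of depth in the calls lost or gained there was not tested.

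**Figure D2:**
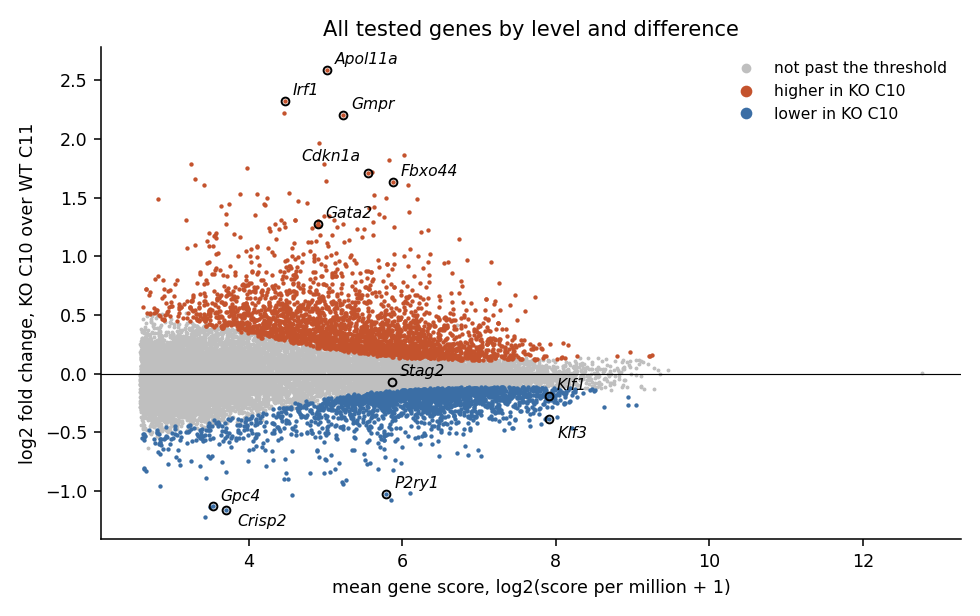
Log2 difference KO C10 over WT C11 (y axis) against mean gene score on a log2 scale (x axis) for all 19519 tested genes; colours mark genes past the threshold. The gains reach 2.59 at Apol11a, the losses shown by name reach -1.16 at Crisp2, and Stag2 sits in the grey band.

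The largest gain of all called genes was at Apol11a (chr15:77508271-77517319, plus strand), in the apolipoprotein L cluster. Its scores were 9.403, 10.98 and 5.21 in WT C11 and 54.8, 50.96 and 57.01 in KO C10. No WT library came near a KO library, and the log2 difference was 2.59 (SE 0.152, adjusted p = 4.44e-12). Its score was above 0 in 9.5%, 12.9% and 6.1% of nuclei in WT and 49.2%, 45.6% and 51.1% in KO. In nuclei matched on fragments the shares were 9.6%, 13% and 5.9% of nuclei in WT and 48.3%, 45.6% and 51.9% in KO; the library medians there were 14293 to 16232 fragments in WT and 14827 to 15933 in KO. The promoters of the genes with the 2 largest gains are printed because a reader can see in them the letters of the factor families that the gene lists below are about. Each runs from 250 bases before to 50 after the RefSeq start (GRCm38.p6), 5′ to 3′ on the gene's strand. Capitals mark matches on either strand to NGATAA with A or T first (GATA factors), TTCNNNGAA (STAT), a pair of GAAA with 2 bases between (IRF, interferon-regulatory factors) and CACCC (Krüppel-like factors). The matches do not overlap each other.
Apol11a: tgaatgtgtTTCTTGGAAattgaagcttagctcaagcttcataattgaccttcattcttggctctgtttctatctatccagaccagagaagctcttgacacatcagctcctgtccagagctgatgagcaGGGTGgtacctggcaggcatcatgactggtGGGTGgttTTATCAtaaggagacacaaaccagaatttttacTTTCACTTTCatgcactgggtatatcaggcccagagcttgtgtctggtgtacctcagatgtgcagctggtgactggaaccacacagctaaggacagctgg
Irf1: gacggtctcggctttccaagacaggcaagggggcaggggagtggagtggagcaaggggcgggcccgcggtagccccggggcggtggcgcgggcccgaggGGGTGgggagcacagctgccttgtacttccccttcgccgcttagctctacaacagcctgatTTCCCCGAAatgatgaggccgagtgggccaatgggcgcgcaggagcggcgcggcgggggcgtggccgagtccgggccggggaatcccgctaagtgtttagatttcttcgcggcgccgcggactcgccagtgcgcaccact
The Apol11a window (chr15:77508019-77508318, plus strand) held 1 GATA, 1 STAT and 1 IRF match and 2 CACCC matches, and the Irf1 window (chr11:53769764-53770063, plus strand) 1 STAT and 1 CACCC match. Over 17880 promoters of this length, 15.7% held a GATA, 8.08% a STAT, 3.46% an IRF and 58.8% a CACCC match. A match is a description of these letters and not a bound site.

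The apolipoprotein L genes encode intracellular lipid-binding proteins, several of them interferon-inducible, and lie side by side on chromosome 15. Of 13 members 9 passed the filter on low scores; 7 of these 9 rose, none fell (7 and 0, 7 and 0, 8 and 0), and their median log2 difference was 1.447. With no filter, 8 of 12 members rose, beside 2630 of all 24028 genes, and the median was 0.883. Apol10a rose beside Apol11a, with scores of 6.26, 10.6 and 4.37 in WT C11 and 34.4, 33.6 and 36.1 in KO C10 and a log2 difference of 2.22 (SE 0.176, adjusted p = 8.66e-10). Apol11b (chr15:77633951-77643286, minus strand) scored 22.3, 31.2 and 19.8 in WT C11 and 87.6, 86.5 and 88.04 in KO C10. The KO libraries were tight around 87 and the WT libraries spread from 19.8 to 31.2, a difference of 1.82 (SE 0.0959, adjusted p = 7.14e-13). Apol8 (0.065) and Apol9b (-0.0016), in the same cluster, did not pass the threshold. The members are near copies of each other and may share fragments, which was not tested, so how the gain divides among them is uncertain.

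Irf1 (chr11:53770014-53778374, plus strand), a transcription factor of the interferon response, scored 7.36, 6.47 and 5.39 in WT C11 and 41.5, 34.8 and 31.6 in KO C10. All KO libraries were at least 4 times the highest WT library, and the log2 difference was 2.32 (SE 0.134, adjusted p = 3.03e-12). Its score was above 0 in 8%, 7.8% and 6.2% of nuclei in WT and 36.2%, 30.7% and 29.4% in KO. Of its 4 tested neighbours within 100 kb, 3 rose as well. Of 50 tested interferon genes 21 rose and 2 fell (12 and 10, 14 and 1, 17 and 1), and 27 did not pass the threshold. The gains of Mx1 (4.93 in WT and 8.76 in KO) and Oas1a (3.98 and 7.13) were counted although the WT mean was under the filter of 5, so these genes were tested only through their KO score. The median was 0.154, and 0.027 under median centring, while Irf1 and Oasl2 kept direction and call under every alternative that tested them. Oasl2, an interferon-induced antiviral protein, had scores of 6.51, 5.95 and 4.88 in WT C11 and 15.8, 15.04 and 12.8 in KO C10 and a log2 difference of 1.20 (SE 0.157, adjusted p = 2.31e-06). Further members are named here after their values were seen. Xaf1 (0.74), Mx1 (0.72), Parp14 (0.66) and Cxcl10 (0.62) rose. Irf2, which opposes Irf1 at shared sites, fell by 0.26 on the log2 scale (55.6 in WT C11 and 46.3 in KO C10, adjusted p = 0.00134). The other loss was at the interferon target Rsad2, by 0.19 (71.56 in WT C11 and 62.85 in KO C10, adjusted p = 0.016), with overlapping libraries. Other well-known interferon targets did not pass the threshold, among them Isg15 (0.0079), Ifit1 (-0.15), Irf7 (-0.097), Irf9 (0.068) and Stat2 (-0.019).

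Gmpr (chr13:45507444-45546386, plus strand), which turns guanosine monophosphate back into inosine monophosphate, scored 11.7, 15.1 and 10.8 in WT C11 and 56.9, 60.2 and 64.8 in KO C10. The groups were far apart, with a log2 difference of 2.20 (SE 0.0999, adjusted p = 8.32e-14), and no other tested gene started within 100 kb. Its score was above 0 in 24.2%, 30.7% and 24.6% of nuclei in WT and 65.2%, 65.7% and 67.9% in KO. Of the 20 tested genes of the purine list 4 rose and 4 fell (3 and 10, 3 and 3, 4 and 3), with a median of -0.066. Nudt16, a hydrolase of inosine nucleotides (chr9:105129338-105131805, minus strand), scored 13.01, 14.9 and 15.8 in WT C11 and 49.9, 45.5 and 46.9 in KO C10. It rose by 1.64 (SE 0.0898, adjusted p = 1.15e-12), and Mrpl3, the only tested neighbour within 100 kb, did not pass the threshold.

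Cdkn1a (chr17:29090979-29100722, plus strand), the p21 inhibitor of cyclin-dependent kinases and a classical p53 target, scored 17.4, 22.9 and 22.6 in WT C11 and 70.6, 71.2 and 69.9 in KO C10. The KO libraries agreed within 1.3 score units of each other, and the log2 difference was 1.71 (SE 0.081, adjusted p = 1.44e-13). Of 21 tested p53 targets 4 rose and 2 fell (4 and 4, 3 and 0, 5 and 1), beside 24.1% of all tested genes called in either direction. Their median was -0.02, and 0.027 under cyclic loess, 0.016 under quantile normalization and -0.148 under median centring. Phlda3, a p53-induced inhibitor of Akt, rose by 0.59 (SE 0.106, adjusted p = 0.000139), with scores of 16.8, 15.9 and 15.2 in WT C11 and 26.9, 22.3 and 24.8 in KO C10. The p53 gene itself, Trp53 (-0.02), and its targets Mdm2 (-0.049), Bax (-0.0091) and Bbc3 (-0.034) did not pass the threshold.

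In the erythropoietin and STAT5 list 8 of 23 tested genes rose and 1 fell (6 and 4, 6 and 0, 8 and 1), with a median of 0.125 that was -0.003 under median centring. Socs3, which blocks JAK kinases at activated receptors, scored 28.99, 33.9 and 26.6 in WT C11 and 71.6, 76.00 and 82.2 in KO C10, a difference of 1.34 (SE 0.0729, adjusted p = 1.09e-12). Pim3, a survival kinase, scored 58.6, 72.7 and 65.4 in WT C11 and 140.03, 147 and 151 in KO C10 and rose by 1.15 (SE 0.0571, adjusted p = 2.78e-13). Both genes more than doubled in every KO library over the WT mean. Osm (0.94), Cish (0.67), Sh2b3 (0.67) and Socs1 (0.51) also rose. Other genes of this list did not pass the threshold, among them Bcl2l1 (-0.053), Bcl6 (0.072), Pim2 (-0.11), Socs2 (0.11) and Id1 (0.15). The erythropoietin receptor Epor fell by 0.20 on the log2 scale (163 in WT C11 and 142 in KO C10, adjusted p = 0.0012), while Jak2 (-0.048), Stat5a (-0.054) and Stat5b (-0.10) did not pass the threshold.

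Among the other leading gains, Fbxo44, an F-box subunit of ubiquitin ligases (chr4:148152799-148160094, minus strand), had the smallest adjusted p of the named genes. Its scores were 27.7, 27.02 and 28.1 in WT C11 and 86.2, 94.04 and 83.9 in KO C10, a difference of 1.64 (SE 0.0587, adjusted p = 1.69e-15). Arhgdib, an inhibitor of small GTPases in blood cells (chr6:136923660-136941899, minus strand), scored 8.46, 6.31 and 4.22 in WT C11 and 18.9, 27.2 and 23.6 in KO C10 and rose by 1.75 (SE 0.177, adjusted p = 4.54e-08). Pirt, a regulator of ion channels known from sensory neurons (chr11:66911991-66928700, plus strand), scored 4.35, 3.99 and 2.94 in WT C11 and 13.4, 13.2 and 15.2 in KO C10, a difference of 1.66 (SE 0.166, adjusted p = 3.94e-08) at a low level; its WT mean of 3.76 was under the filter of 5, so it too was tested only through its KO score. Pdxk-ps (chr17:32076083-32091423, minus strand), a pseudogene of pyridoxal kinase beside Notch3, scored 21.5, 26.9 and 33.6 in WT C11 and 95.4, 92.7 and 114 in KO C10 and rose by 1.86 (SE 0.0981, adjusted p = 7.14e-13). Of its 4 tested neighbours Notch3 rose (1.31), so the 2 scores may hold the same fragments, and how fragments that map to several places were treated is not given in the sources used here.

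**Figure D3:**
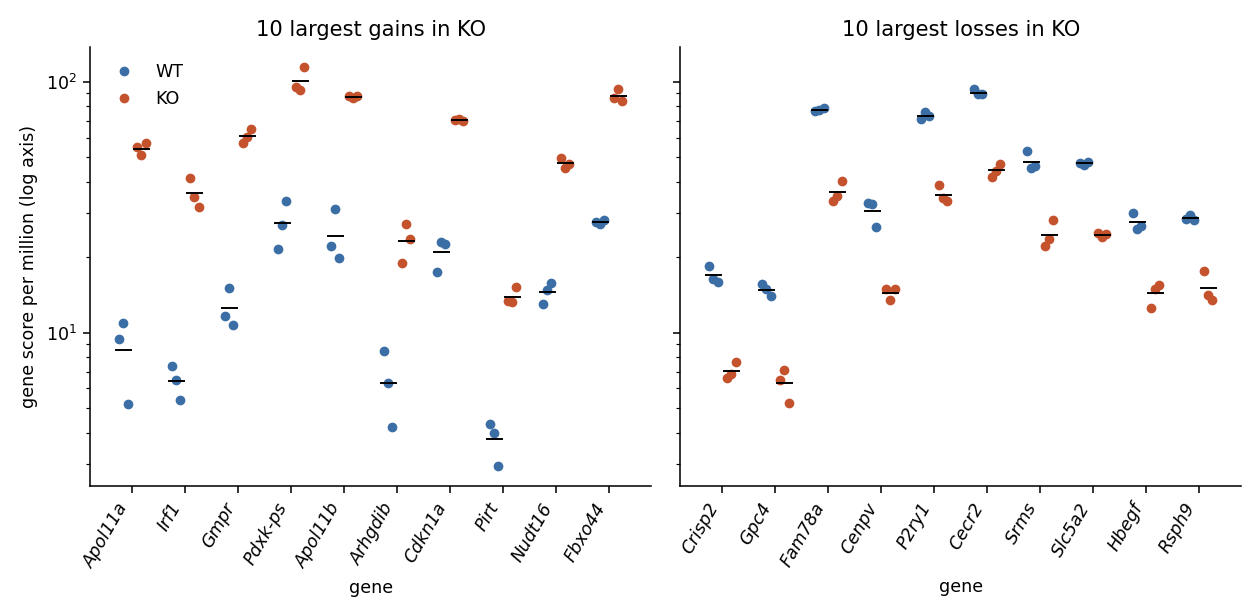
Gene scores per library (y axis, log scale) of the genes named for the 10 largest gains (left) and 10 largest losses (right) in KO C10, with predicted genes and near neighbours passed over; dots are libraries and black lines group means. Non-overlap was part of the rule that chose these genes; the gains span 1.64 to 2.59 and the losses -0.90 to -1.16 on the log2 scale.

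Among the named genes, the 10 losses were smaller than the 10 gains, after 4 predicted genes and clones were passed over on the lower side. The largest of these losses was at Crisp2, a cysteine-rich secretory protein known from testis (chr17:40764734-40794146, minus strand), with scores of 18.5, 16.4 and 15.99 in WT C11 and 6.58, 6.85 and 7.67 in KO C10 and a log2 difference of -1.16 (SE 0.142, adjusted p = 8.87e-07). Gpc4, a cell surface heparan sulfate proteoglycan on the X chromosome (chrX:52053018-52164923, minus strand), scored 15.6, 14.9 and 13.99 in WT C11 and 6.45, 7.13 and 5.27 in KO C10. Every KO library lay below every WT library, and it fell by 1.13 (SE 0.152, adjusted p = 3.49e-06), and no tested gene started within 100 kb. Their promoters are shown beside those of the largest gains, with the same marks.
Crisp2: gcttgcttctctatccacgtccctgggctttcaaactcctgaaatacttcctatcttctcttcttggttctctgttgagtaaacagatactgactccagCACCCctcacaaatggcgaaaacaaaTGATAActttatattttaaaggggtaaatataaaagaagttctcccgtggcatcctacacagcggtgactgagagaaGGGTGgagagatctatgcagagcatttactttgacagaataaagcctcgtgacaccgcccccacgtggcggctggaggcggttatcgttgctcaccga
Gpc4: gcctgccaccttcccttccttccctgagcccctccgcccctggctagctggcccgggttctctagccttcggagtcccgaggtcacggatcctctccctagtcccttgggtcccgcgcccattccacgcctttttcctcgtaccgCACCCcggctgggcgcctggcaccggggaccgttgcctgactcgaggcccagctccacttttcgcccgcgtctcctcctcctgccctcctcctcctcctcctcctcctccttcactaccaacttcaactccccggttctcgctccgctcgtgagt
The Crisp2 window (chr17:40794097-40794396, minus strand) held 1 GATA and 2 CACCC matches, and the Gpc4 window (chrX:52164874-52165173, minus strand) 1 CACCC match.

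P2ry1 (chr3:61002785-61008982, plus strand), a receptor for ADP, scored 71.01, 75.7 and 72.96 in WT C11 and 38.8, 34.5 and 33.4 in KO C10. All KO libraries stood below 39 and all WT libraries above 71, a difference of -1.02 (SE 0.0608, adjusted p = 5.13e-12), and its score was above 0 in 61.6%, 64.4% and 60.5% of nuclei in WT and 45.8%, 43% and 42.2% in KO. Cecr2, a bromodomain protein of a chromatin remodelling complex (chr6:120666421-120771191, plus strand), scored 93.9, 89.2 and 89.1 in WT C11 and 41.7, 44.1 and 47.3 in KO C10 and fell by 1.02 (SE 0.0537, adjusted p = 7.14e-13). The score of Cecr2 was above 0 in 96.9%, 97.7% and 96.8% of nuclei in WT and 89.8%, 91.3% and 93.1% in KO, and its mean over those nuclei was 0.969, 0.913 and 0.921 in WT and 0.465, 0.484 and 0.508 in KO before scaling. Fam78a (chr2:32050055-32084669, minus strand) scored 76.3, 77.3 and 78.4 in WT C11 and 33.6, 35.2 and 40.2 in KO C10, a difference of -1.07 (SE 0.0613, adjusted p = 2.55e-12), and its score was above 0 in 72.9%, 74.9% and 74.5% of nuclei in WT and 45.8%, 44.2% and 49.2% in KO.

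Cenpv, a centromere protein (chr11:62524944-62539261, minus strand), scored 32.97, 32.6 and 26.5 in WT C11 and 14.9, 13.5 and 14.98 in KO C10 and fell by 1.03 (SE 0.106, adjusted p = 6.23e-08); 3 of its 8 tested neighbours fell and 1 rose. Srms, a tyrosine kinase without a receptor domain (chr2:181205563-181213171, minus strand), scored 52.9, 45.5 and 46.1 in WT C11 and 22.1, 23.7 and 28.1 in KO C10 and fell by 0.94 (SE 0.0846, adjusted p = 6.41e-09). Slc5a2, the glucose transporter known from the kidney (chr7:128265697-128272433, plus strand), scored 47.4, 46.8 and 47.9 in WT C11 and 24.9, 24.05 and 24.7 in KO C10. Its libraries were the tightest of these genes, and the difference was -0.92 (SE 0.0694, adjusted p = 3.27e-10). Hbegf, a growth factor of the EGF family, scored 30.1, 25.98 and 26.7 in WT C11 and 12.6, 14.97 and 15.5 in KO C10 and fell by 0.90 (SE 0.109, adjusted p = 7.9e-07). Rsph9, a protein of ciliary radial spokes (chr17:46129277-46144198, minus strand), scored 28.3, 29.6 and 28.2 in WT C11 and 17.6, 14.1 and 13.5 in KO C10 and fell by 0.90 (SE 0.107, adjusted p = 6.54e-07). Of the tested neighbours of Srms and of Slc5a2, 3 of 7 fell in each case, with Fndc11 (-0.89) beside Srms and Tgfb1i1 (-0.85) beside Slc5a2.

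Of 18 tested erythroid transcription factors 14 fell in KO C10, in small steps, none rose, and 4 did not pass the threshold (0 and 14, 0 and 10, 0 and 9). Their median was -0.255 beside -0.014 over all tested genes, and it stayed below 0 under every scaling. Klf3, a Krüppel-like repressor under the control of Klf1 (chr5:64803523-64830129, plus strand), scored 277, 255 and 285 in WT C11 and 209.9, 207 and 208 in KO C10 and fell by 0.38 (SE 0.0453, adjusted p = 5.23e-07). Sox6, which silences embryonic globin (chr7:115470872-116038744, minus strand), scored 280.4, 261 and 249.8 in WT C11 and 202, 203 and 203 in KO C10. Its KO libraries differed by less than 2 units, and the difference was -0.37 (SE 0.0451, adjusted p = 7.13e-07). Gata1 (chrX:7959260-7976574, minus strand) scored 91.4, 89.6 and 94.3 in WT C11 and 75.2, 76.5 and 81.03 in KO C10 and fell by 0.24 (SE 0.0465, adjusted p = 0.000359). Klf1 (chr8:84901928-84905295, plus strand) scored 255, 249 and 262 in WT C11 and 217, 223 and 232 in KO C10 and fell by 0.19 (SE 0.0433, adjusted p = 0.00195), which was lost without a variance trend and over all Int nuclei (range of adjusted p over its alternatives 0.00145 to 0.0677). Gfi1b (-0.34), Tal1 (-0.33), Lmo2 (-0.32), Bcl11a (-0.31), Zfpm1 (-0.27) and Nfe2 (-0.20) fell too, and E2f4 (-0.0038), E2f2 (-0.039), Zbtb7a (-0.096) and Lyl1 (-0.11) did not pass the threshold.

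Gata2 moved against Gata1. Gata2 (chr6:88193891-88207032, plus strand) scored 16.00, 18.4 and 14.9 in WT C11 and 44.3, 38.97 and 40.4 in KO C10, more than 2 times higher in every KO library than in any WT library, with a difference of 1.28 (SE 0.0926, adjusted p = 1.84e-10). Its promoter is printed because the motifs marked above have no match in it.
Gata2: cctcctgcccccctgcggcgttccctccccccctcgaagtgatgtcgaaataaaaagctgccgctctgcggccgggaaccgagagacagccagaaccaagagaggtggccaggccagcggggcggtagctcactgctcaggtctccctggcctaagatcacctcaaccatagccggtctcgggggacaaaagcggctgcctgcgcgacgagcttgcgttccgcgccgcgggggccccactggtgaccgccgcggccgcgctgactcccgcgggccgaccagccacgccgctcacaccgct
The window (chr6:88193641-88193940, plus strand) held none of the 4 motifs, which says only that these letters are not in these 300 bases. Of 21 tested genes of the erythroid progenitor stage 2 rose and 7 fell (2 and 8, 2 and 5, 2 and 4), with a median of -0.073. Beside Gata2 the riser was Csf2rb2, the interleukin-3 receptor chain, with scores of 8.43, 9.698 and 7.72 in WT C11 and 14.6, 14.6 and 13.6 in KO C10 and a difference of 0.67 (SE 0.142, adjusted p = 0.000913). Myb fell by 0.54 on the log2 scale (33.6 in WT C11 and 22.8 in KO C10, adjusted p = 6.63e-05), and Kit (-0.022) did not pass the threshold, so progenitor genes did not move together.

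Of 9 tested globin genes 5 fell and 1 rose (0 and 5, 0 and 3, 1 and 5), with a median of -0.23. Hbb-bh2 and Hbb-bh1, neighbouring embryonic genes of the beta globin locus, had the largest changes at low scores: 14.5, 11.3 and 10.3 in WT C11 and 6.47, 6.27 and 6.79 in KO C10 for Hbb-bh2, a difference of -0.78 (SE 0.159, adjusted p = 0.000559), and 10.5, 8.79 and 8.71 in WT C11 and 6.17, 4.56 and 5.22 in KO C10 for Hbb-bh1, a difference of -0.71 (SE 0.166, adjusted p = 0.00219). Of 12 tested neighbours of Hbb-bh2 within 100 kb 7 fell and 1 rose, and the olfactory receptor gene Olfr631 fell by about as much as the globin genes, with a log2 difference of -0.76. The adult genes Hbb-bs (-0.23) and Hba-a1 (-0.37) fell, Hba-a2 (0.055) did not pass the threshold, and Hbq1b (-0.24) and Hbq1a (0.23) moved in opposite directions. The alpha genes and the theta genes are near-identical pairs, so the split within a pair is uncertain.

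Of 14 tested genes of heme synthesis and its transport 5 fell and 1 rose (1 and 9, 1 and 1, 1 and 3), with a median of -0.143. Slc25a39, the mitochondrial glutathione carrier, scored 264, 261 and 287 in WT C11 and 225, 222 and 218 in KO C10 and fell by 0.28 (SE 0.0449, adjusted p = 3.04e-05). The gain was at Pgrmc1, a heme-binding partner of ferrochelatase on the X chromosome, which scored 28.95, 31.3 and 29.8 in WT C11 and 39.6, 37.3 and 38.4 in KO C10 and rose by 0.35 (SE 0.0712, adjusted p = 0.000645). Alas2, the rate-limiting enzyme of erythroid heme synthesis, fell by 0.14 on the log2 scale (97.1 in WT C11 and 87.9 in KO C10, adjusted p = 0.0169). Of 11 tested iron genes 4 fell and none rose (0 and 6, 0 and 3, 0 and 5), with a median of -0.083. Steap3, the endosomal ferrireductase, scored 96.3, 92.1 and 86.9 in WT C11 and 66.5, 66.7 and 72.2 in KO C10 and fell by 0.42 (SE 0.0503, adjusted p = 7.24e-07). Slc40a1, the iron exporter ferroportin, scored 70.5, 66.8 and 63.8 in WT C11 and 51.5, 51.6 and 49.6 in KO C10 and fell by 0.39 (SE 0.0536, adjusted p = 4.74e-06). The transferrin receptor Tfrc (-0.22) fell, and the ferritin genes Fth1 (-0.022) and Ftl1 (-0.041) did not pass the threshold.

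Of 25 tested genes of the red cell membrane 17 fell, none rose and 8 did not pass the threshold (0 and 19, 0 and 5, 0 and 10); the median was -0.177 and stayed below 0 under every scaling. Cd59a, which shields cells from complement, scored 70.3, 65.5 and 59.7 in WT C11 and 39.99, 47.03 and 49.3 in KO C10 and fell by 0.51 (SE 0.0694, adjusted p = 3.83e-06). Xk, the X-linked partner of the Kell protein, scored 54.6, 52.4 and 55.8 in WT C11 and 37.03, 38.9 and 43.2 in KO C10 and fell by 0.44 (SE 0.0634, adjusted p = 7.81e-06). Glycophorin C, Gypc (-0.17), beta spectrin, Sptb (-0.18), and ankyrin, Ank1 (-0.14), fell, and Slc4a1 (-0.034) and the protein 4.1 gene Epb41 (-0.017) did not pass the threshold. Of 24 tested genes of late maturation 8 fell and 3 rose (1 and 10, 1 and 3, 1 and 5), with a median of -0.071. Hemgn, a nuclear protein of erythroid cells, scored 235, 225 and 236 in WT C11 and 175, 187 and 201 in KO C10 and fell by 0.30 (SE 0.0473, adjusted p = 2.61e-05). Cat, which encodes catalase, scored 67.2, 64.6 and 66.5 in WT C11 and 82.8, 90.4 and 84.3 in KO C10 and rose by 0.37 (SE 0.0484, adjusted p = 2.27e-06). The KO nuclei also stood further toward Late on the stage score. In nuclei matched on the stage share the counts were 14 of 18 erythroid factors and 17 of 25 membrane genes lower, beside 1980 of all 19417 tested genes. The matching left a stage gap of 0.0781, with every KO library above every WT library. The part of stage in these counts was not tested.

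**Figure D4:**
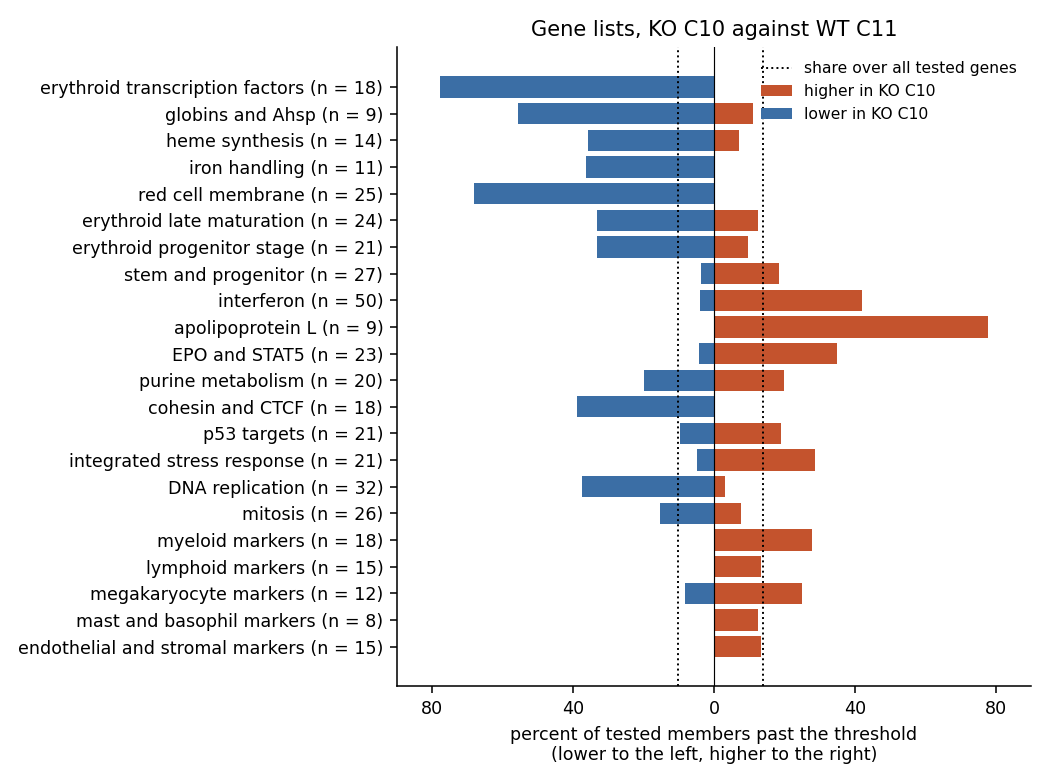
Percent of the tested members of each gene list past the threshold, lower to the left and higher to the right (x axis), for 22 lists with their number of tested members (y axis). Dotted lines are the shares over all tested genes, 10.3% lower and 13.8% higher, which are not matched on score level. Erythroid factors (14 of 18) and membrane genes (17 of 25) lie on the lower side, and apolipoprotein L (7 of 9) and interferon genes (21 of 50) on the higher side; under median centring 12 interferon genes were higher and 10 lower, where the shares over all tested genes were 7.73% and 26%.

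Of 18 tested genes of cohesin and its partners 7 fell and none rose (0 and 13, 0 and 3, 0 and 6), with a median of -0.117. Under cyclic loess and quantile normalization 9 fell and 1 rose. Of all 19519 tested genes 2439 fell and 2922 rose under the first, and 2747 fell and 2594 rose under the second. Rec8, a meiotic cohesin subunit, scored 33.5, 31.1 and 31.7 in WT C11 and 23.7, 22.2 and 21.00 in KO C10 and fell by 0.51 (SE 0.085, adjusted p = 6.63e-05). Pds5a, a regulator of cohesin release, scored 85.4, 88.9 and 79.2 in WT C11 and 69.4, 63.8 and 67.9 in KO C10 and fell by 0.33 (SE 0.0516, adjusted p = 2.87e-05). Ctcf (-0.14) and Wapl (-0.24) fell, and the ring subunits Smc1a (-0.12), Smc3 (-0.12) and Rad21 (-0.12) did not pass the threshold. Of 32 tested genes of DNA replication 12 fell and 1 rose (0 and 16, 0 and 4, 1 and 3), with a median of -0.073. Tyms, which makes thymidylate, scored 17.8, 21.8 and 17.4 in WT C11 and 15.00, 11.3 and 12.8 in KO C10 and fell by 0.51 (SE 0.13, adjusted p = 0.00451). Pola1, the catalytic subunit of the primase polymerase, scored 34.7, 34.2 and 26.6 in WT C11 and 24.6, 20.8 and 21.8 in KO C10 and fell by 0.48 (SE 0.0996, adjusted p = 0.000676). Both were past the threshold in C10 against C11 and not over all Int nuclei, where they were -0.11 and -0.081. Of 26 tested mitosis genes 4 fell and 2 rose (0 and 13, 0 and 0, 0 and 2), with a median of -0.067 that was -0.195 under median centring; 24.1% of all tested genes were called. Bub1b, of the spindle checkpoint, scored 55.7, 52.8 and 53.1 in WT C11 and 48.3, 42.4 and 46.96 in KO C10 with a difference of -0.23 (SE 0.0601, adjusted p = 0.00599), and Cenpa, the centromeric histone, scored 69.04, 66.9 and 81.1 in WT C11 and 81.97, 86.8 and 89.9 in KO C10 with a difference of 0.25 (SE 0.0586, adjusted p = 0.00195). Bub1b lost its call without KO replicate 2, without a variance trend and over all Int nuclei (adjusted p 0.0586, 0.0707 and 0.224), and Cenpa under median centring, without a variance trend and over all Int nuclei (0.206, 0.108 and 0.19).

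Of 21 tested genes of the integrated stress response, the program that limits translation and raises amino acid supply, 6 rose and 1 fell (6 and 3, 3 and 0, 6 and 1); the median was 0.015, and -0.113 under median centring. Chac1, which degrades glutathione, scored 14.2, 22.7 and 18.1 in WT C11 and 28.1, 32.02 and 51.4 in KO C10. KO replicate 3 stood apart at the top, and the difference was 0.96 (SE 0.155, adjusted p = 4.11e-05), lost without a variance trend (range of adjusted p over its alternatives 5.03e-18 to 0.0565). Shmt2, the mitochondrial serine enzyme, scored 20.8, 23.2 and 22.9 in WT C11 and 40.2, 35.5 and 39.8 in KO C10 and rose by 0.76 (SE 0.0823, adjusted p = 1.3e-07). All 4 tested neighbours of Shmt2 rose as well, Lrp1 by 0.79. Ddit3 (-0.018) and Asns (0.13), central genes of this response, did not pass the threshold.

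Markers of stem cells and of other lineages are given beside the 13.8% of all tested genes that rose. Of 27 tested stem and progenitor genes 5 rose and 1 fell (3 and 3, 5 and 1, 7 and 1), with a median of -0.022. Hoxa7 scored 6.61, 6.53 and 5.23 in WT C11 and 15.1, 11.8 and 15.7 in KO C10 and rose by 1.09 (SE 0.159, adjusted p = 1.08e-05), and Sox4 (1.02), Fli1 (0.36) and Etv6 (0.31) rose. Runx1 scored 139.9, 133 and 129 in WT C11 and 138, 138 and 138 in KO C10 and did not pass the threshold, at 0.041 (SE 0.0421, adjusted p = 0.558) and -0.087 under median centring. Of 18 tested myeloid markers 5 rose and none fell (4 and 2, 3 and 0, 6 and 0), with a median of 0.067 that was -0.060 under median centring. Spi1 (chr2:91096678-91115759, plus strand), the myeloid factor PU.1, scored 9.99, 13.4 and 7.795 in WT C11 and 15.9, 14.8 and 15.6 in KO C10. Its highest WT and lowest KO library differed by little, and the difference was 0.55 (SE 0.156, adjusted p = 0.0098), lost without a variance trend (range of adjusted p 0.000529 to 0.0831). Cebpb scored 43.8, 48.6 and 48.5 in WT C11 and 78.2, 79.5 and 74.2 in KO C10 and rose by 0.71 (SE 0.0548, adjusted p = 5.12e-10). Cebpa scored 17.8, 18.3 and 14.6 in WT C11 and 14.98, 14.1 and 15.5 in KO C10, with overlapping libraries and a difference of -0.17 (SE 0.123, adjusted p = 0.37), and had the opposite sign over all Int nuclei, 0.25.

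Of 12 tested megakaryocyte markers 3 rose and 1 fell (2 and 2, 3 and 0, 3 and 2), with a median of 0.021 that was below 0 under each other scaling, at -0.046, -0.088 and -0.107, and with no filter, at -0.004. Gp5, a subunit of the von Willebrand receptor, scored 9.04, 9.37 and 7.21 in WT C11 and 24.3, 23.4 and 22.1 in KO C10 and rose by 1.35 (SE 0.131, adjusted p = 2.24e-08). Itga2b, which encodes CD41, scored 43.8, 48.9 and 45.9 in WT C11 and 77.4, 82.7 and 79.8 in KO C10 and rose by 0.78 (SE 0.0539, adjusted p = 8.5e-11). Of 15 tested lymphoid markers 2 rose and none fell (2 and 1, 1 and 0, 3 and 0), close to the 13.8% over all tested genes: Klrb1c, with scores of 51.95, 57.9 and 53.1 in WT C11 and 73.4, 79.1 and 71.1 in KO C10 and a difference of 0.45 (SE 0.0552, adjusted p = 9.55e-07), and Vpreb1, with scores of 20.8, 26.3 and 26.00 in WT C11 and 42.2, 31.8 and 29.9 in KO C10 and a difference of 0.48 (SE 0.108, adjusted p = 0.00145) that was lost without a variance trend (range of adjusted p 9.96e-06 to 0.0878). Of 15 tested endothelial and stromal markers 2 rose and none fell (2 and 2, 1 and 0, 2 and 0), again close to 13.8%: Alpl, with scores of 43.9, 41.7 and 38.9 in WT C11 and 64.02, 69.2 and 68.7 in KO C10 and a difference of 0.69 (SE 0.0584, adjusted p = 2.68e-09), and Kdr, with overlapping scores of 12.5, 13.4 and 9.09 in WT C11 and 13.3, 17.6 and 18.7 in KO C10 and a difference of 0.48 (SE 0.151, adjusted p = 0.022) that was lost under 5 of 19 alternatives, among them leaving out WT replicate 3, KO replicate 2 or KO replicate 3. Of 8 tested mast cell and basophil markers Gata2 alone rose (1 and 0, 1 and 0, 1 and 0). Summed over a whole list, the myeloid scores ranged from 462 to 481 in WT and from 531 to 543 in KO. Such sums weigh high-scoring members most, in the myeloid list Cd68 with a mean of 187.8, and do not describe a typical member. Without Cebpb, which added most to the KO-WT difference, the myeloid scores ranged from 414 to 433 and from 454 to 464. Those of mast cells and basophils ranged from 90.5 to 121 and from 133 to 141, but 75.6 to 105 and 94.3 to 96.2 without Gata2, which overlapped, and the endothelial and stromal scores from 253 to 282 and from 297 to 304, but 214 to 241 and 228 to 235 without Alpl, which overlapped too. These 3 genes were left out after the values were seen. The sums of the lymphoid markers, 295 to 335 and 330 to 363, and of the megakaryocyte markers, 412 to 449 and 446 to 472, overlapped. No marker of these lists was at 0, and the part of nuclei of other cell types or of doublets in these gains was not tested. Without nuclei of high doublet score 3 myeloid and 3 megakaryocyte markers rose, beside 2277 of all 19631 tested genes. Calls over all genes went from 4708 to 4030 there.

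No test was run on the motif shares. A GATA match was in 12.5% of 14419 promoters of tested genes, in 10.2% of those of 2049 genes that rose and in 12.1% of those of 1493 that fell. A STAT match was in 7.28%, 8.30% and 6.76%, an IRF match in 3.14%, 3.22% and 2.95%, and a CACCC match in 61.9%, 63.5% and 63.6%. Of the 84 matched promoters of genes that rose by 2-fold or more, 11.9% held a GATA, 14.3% a STAT, 5.95% an IRF and 70.2% a CACCC match, which is 10, 12, 5 and 59 promoters.

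The same genes were then set beside other nuclei of the same 6 libraries. KO C8 against WT C9, another pair of Int clusters, gave 4630 called genes of 19476 (23.8%; 16.2% higher and 7.62% lower); the shallower cluster C5, which holds nuclei of both genotypes (143, 224 and 261 WT and 528, 598 and 572 KO, with library medians of 3909 to 5034 fragments), gave 173 of 19438 (0.89%; 0.412% higher and 0.478% lower); and the Late class gave 8161 of 15886 (51.4%; 32.9% higher and 18.5% lower). The comparisons share libraries, and the Late comparison also holds the 8 Late-class nuclei of C10 and C11, so values are given side by side. Apol11a differed by 2.59 in C10 against C11, 2.93 in C8 against C9, 2.75 in C5 and 3.04 in Late nuclei. Gmpr differed by 2.20, 2.18, 2.96 and 2.46, and Cdkn1a by 1.71, 1.68, 1.74 and 1.68, in the same order. P2ry1 differed by -1.02, -0.80, -1.10 and -1.17. These 4 genes were past the threshold in all 4 comparisons. Of the 20 genes named for the largest differences, 13 passed in C5, and Pirt, Fbxo44, Arhgdib, Crisp2, Cenpv, Slc5a2 and Rsph9 did not (adjusted p 0.0652 to 0.733); without a variance trend 1 gene was called in C5, and without KO replicates 1, 2 and 3 in turn 8, 26 and 10. In C5 the genotypes share 1 cluster and stood 0.291 apart on the stage score (-0.0322 in WT and 0.259 in KO), a wider gap than the 0.131 of C10 against C11. Every KO library was deeper there, with medians of 3909, 4163 and 4061 fragments in WT and 5034, 4940 and 4745 in KO. The part of this depth in the C5 values was not tested.

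Whether the KO-WT difference itself departed from that in C8 against C9 was tested within libraries (C10 less C8 in KO, C11 less C9 in WT). Of 18866 genes 5270 passed (27.9%), 2161 with a more positive (11.5%) and 3109 with a more negative (16.5%) difference in C10 against C11. The more positive share, 41%, was 53.1% under cyclic loess, 27.6% under median centring and 67.9% of 2904 calls among genes with a mean of at least 20, so the direction of the departures as a whole turns with the scaling and the filter. Lfng, a glycosyltransferase that modifies Notch, scored 28.6, 29.2 and 26.04 in WT C11 and 89.4, 80.01 and 73.02 in KO C10 and rose by 1.495 here and 0.59 in C8 against C9, a departure of 0.91 (SE 0.0573, adjusted p = 5.09e-09). H2-T10, a nonclassical class I gene of the major histocompatibility complex, scored 26.8, 26.7 and 24.1 in WT C11 and 72.1, 73.5 and 66.8 in KO C10 and rose by 1.42 and 0.54, a departure of 0.88 (SE 0.0707, adjusted p = 1.41e-07). Fbxo44 (1.64 and 0.81), Nudt16 (1.64 and 0.97) and Pim3 (1.15 and 0.48) were likewise further apart in C10 against C11. Within 100 kb, 4 of 4 tested neighbours of Lfng, 7 of 10 of H2-T10 and 4 of 6 of Fbxo44 rose in C10 against C11. Whether their scores hold the same fragments was not tested. Gata2 departed by 0.33 (SE 0.0844, adjusted p = 0.00631). Apol11a was less apart here than there, a departure of -0.34 (SE 0.116, adjusted p = 0.0346), and so was Gpc4, with -1.13 here and -1.58 there. For Irf1, Gmpr and Cdkn1a the departure did not pass the threshold: 0.28 (SE 0.159, adjusted p = 0.203), 0.019 (SE 0.103, adjusted p = 0.908) and 0.033 (SE 0.0864, adjusted p = 0.805). Klf1 fell here (-0.19) and was at -0.0061 there, a departure of -0.18 (SE 0.0408, adjusted p = 0.0028), whereas that of Gata1 did not pass, at -0.066 (SE 0.0545, adjusted p = 0.384). Fam78a (-1.07 and -0.58), Slc5a2 (-0.92 and -0.49) and Rsph9 (-0.90 and -0.33) fell more in C10 against C11. Fbxo44, Nudt16, Pim3, Fam78a, Slc5a2 and Rsph9 were named for their large difference in C10 against C11, and Lfng and H2-T10 for the departure. That choice favours a larger difference in C10 against C11, and the adjusted p-values do not allow for it. The stage gap between genotypes was 0.131 in C10 against C11 and 0.0930 in C8 against C9, and the median nucleus had 16659 to 19428 fragments in WT C9 and 20901 to 21520 in KO C8; the part of either in the departures was not tested.

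**Figure D5:**
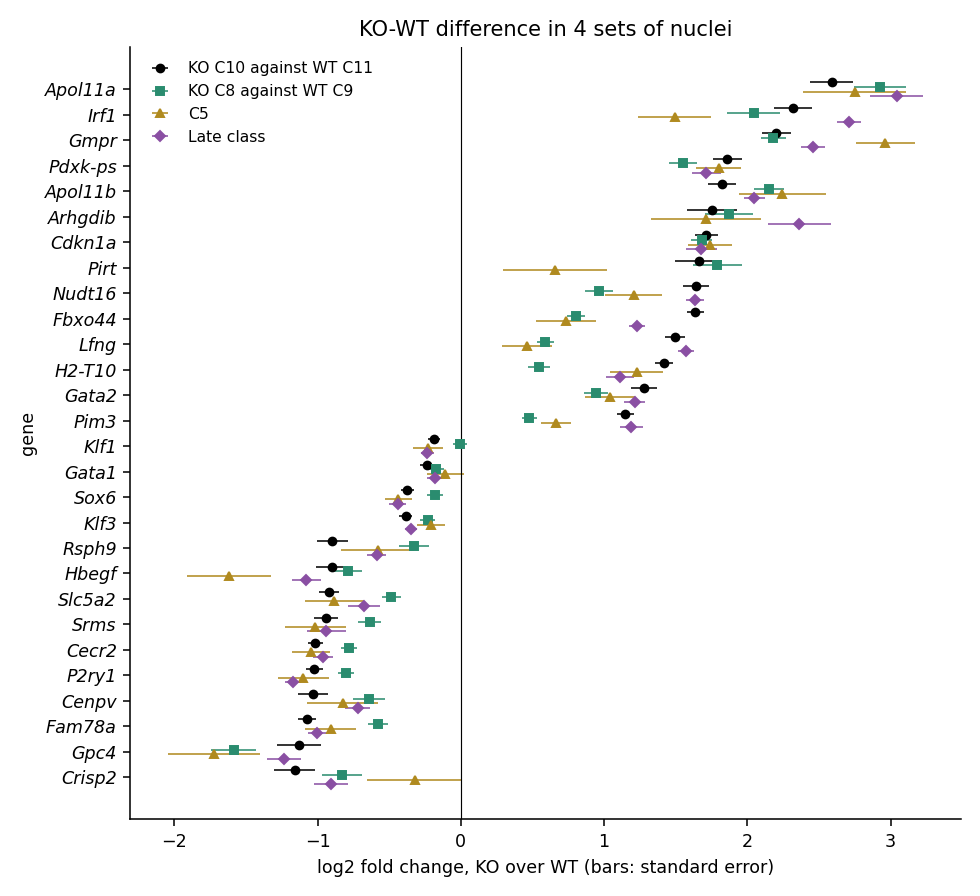
Log2 difference KO over WT with its standard error (x axis) for named genes (y axis) in 4 sets of nuclei of the same 6 libraries. Fbxo44, Lfng, H2-T10 and Pim3 lie further right in C10 against C11 (black) than in C8 against C9 (green), while Gmpr and Cdkn1a lie close together in both. Lfng and H2-T10 were named for this departure, and Fbxo44 and Pim3 for their difference in C10 against C11.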

How the data were processed

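Gene scores (a signal per gene and nucleus) and a table of nuclei were deposited by the authors, with scores scaled to sums of 9999.855 to 10000.12 per nucleus; 25.2% of values were above 0. The weighting of fragments by distance, the clustering and the doublet caller are not given in the sources used here; the submitters' processing notes name mm10 and Cell Ranger. The deposited fragment count, the TSS enrichment and doublet score, and the nucleosome ratio per nucleus were used as they stand. Every nucleus appears 2 times in that table; both copies hold equal values and 1 was kept. The score table holds no gene names; rows were taken in the order of the deposited gene table, and scores of overlapping neighbours correlated across nuclei (median r 0.581, against -0.001 for random rows, as a description).

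Mean scores per library were compared in R 4.3.3 by two-sided moderated tests (limma 3.58.1, eBayes with trend) on log2(score + 1), keeping genes whose mean over the 6 libraries reached 5, with Benjamini-Hochberg adjustment over all tested genes and a threshold of 0.05. Single measures were compared by exact permutation of the 6 libraries. Python 3.11.15, numpy 2.4.6, pandas 2.3.3, scipy 1.17.1 and matplotlib 3.10.9 were used. The main fit was also run on simulated data with 200 of 19519 genes changed and independent noise taken from the smooth variance trend. It found 99% of log2 changes of 1 and 83% of those of 0.5, and 4.21% of calls were false. Such noise follows the model that was fitted, so this does not measure the error of the real calls. No doublets were removed here.

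Named genes were the 10 largest changes each way past the threshold with groups apart (8 predicted genes and clones and 1 near neighbour passed over), a fixed set around Stag2 and GATA factors, the 3 largest departures each way and the 2 largest called changes of each of 22 lists; some members of the lists are not reported by name here. The members, lists and rules were chosen with earlier results of these data known, so a list drawn around a leading gene (interferon, apolipoprotein L, erythropoietin and STAT5, p53, purine) is no independent evidence. Alternatives were another pseudocount, filter, scaling, variance model, replicate block and choice of nuclei, and leaving out each library. The RNA libraries of the same nuclei and the other assays were not analysed here.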

Additional observations from a re-analysis of the deposited data

Results flagged for a closer look

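The KO-WT difference departed between C10 against C11 and C8 against C9 at 5270 genes, by the test of the difference within libraries (limma adjusted p under 0.05). Of the genes named in the text, these passed the test of the departure, the log2 difference in C10 against C11 less that in C8 against C9. Many of them were named for their difference in C10 against C11 or for the departure, and the test does not allow for that choice. It was more positive for Taar7f (0.94), Lfng (0.91), H2-T10 (0.88), Fbxo44 (0.83), Nudt16 (0.67), Pim3 (0.67), Gp5 (0.59), Oasl2 (0.54), Pgrmc1 (0.504), Vpreb1 (0.48), Hoxa7 (0.46), Gpc4 (0.46), Gata2 (0.33), Pdxk-ps (0.31), Cenpa (0.30), Klrb1c (0.28), Cebpb (0.17). It was more negative for Tunar (-1.37), Ccl3 (-1.34), Fam78b (-1.23), Cebpa (-0.59), Rsph9 (-0.57), Tyms (-0.54), Pola1 (-0.52), Fam78a (-0.49), Slc5a2 (-0.44), Csf2rb2 (-0.40), Cenpv (-0.39), Bub1b (-0.35), Apol11a (-0.34), Apol11b (-0.33), Srms (-0.31), Slc40a1 (-0.25), Cecr2 (-0.23), Alpl (-0.22), P2ry1 (-0.22), Pds5a (-0.21), Sox6 (-0.19), Klf1 (-0.18), Hemgn (-0.17), Klf3 (-0.15). Taar7f, a receptor for trace amines, scored 7.86, 6.99 and 5.39 in WT C11 and 4.900, 3.46 and 7.65 in KO C10, with overlapping libraries, and its departure rested on a difference of -1.27 in C8 against C9. The chemokine gene Ccl3 scored 8.26, 8.36 and 5.09 in WT C11 and 4.58, 5.34 and 4.86 in KO C10, the noncoding Tunar 6.22, 7.81 and 4.78 in WT C11 and 4.21, 4.49 and 3.12 in KO C10 and Fam78b 7.19, 9.06 and 5.95 in WT C11 and 5.12, 4.701 and 5.47 in KO C10. These 3 genes were near the filter of 5 in C10 and C11, and were higher in KO in C8 against C9, by 0.89, 0.82 and 0.78. The KO C10 means of Ccl3 (4.93) and Tunar (3.94) were under the filter, so in C10 against C11 both were tested only through their WT score. No group had enough libraries for a test of outlying samples.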

How the results depend on the processing

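Of 69 named genes, 58 kept direction and call over all Int nuclei, 60 when the variance trend was dropped and 62 with median centring; with a mean of at least 20 all 51 that were tested did, and under each other alternative 66 or more did. Of the 4708 called genes none had the opposite sign among those called under any alternative. The cause of the following moves was not tested. Over all Int nuclei the sign turned for Cebpa (0.25), Tunar (0.15), Ccl3 (0.30) and Fam78b (0.20), and under median centring for Runx1 (-0.087). Without a variance trend 2710 genes were called in C10 against C11, 2758 in C8 against C9, 1 in C5 and 3129 for the departure. With a mean of at least 20, which tests fewer genes, 2660 were called in C8 against C9, 4560 in Late nuclei and 2904 for the departure; with no filter 115 were called in C5. The departure count was 3474 under cyclic loess and 3397 under quantile normalization. Leaving out each library in turn gave 3652 to 5042 calls in C10 against C11, 2540 (without KO replicate 3) to 5655 in C8 against C9, 8 (without KO replicate 1) to 329 (without WT replicate 1) in C5 and 3261 (without KO replicate 3) to 4855 for the departure; in C8 against C9 it was 2591 and 2565 without KO replicates 1 and 2, in C5 26 and 10 without KO replicates 2 and 3, and for the departure 3422 without KO replicate 2. The higher share of calls in C8 against C9, 67.9%, was 54.0% under cyclic loess, 51.1% under quantile normalization and 43.6% under median centring, and in Late nuclei 64.0%, 52.5%, 46.5% and 47.9%. By the mean over nuclei the KO-WT difference in fragments turned to -204.19. Leaving out each library gave differences of -0.934 to 1.37 in start site enrichment, -0.359 to 2.44 percentage points of fragment ends in peaks and 0 to 0.684 in doublet score; the first 2 turned without WT replicate 1, the second also without WT replicate 2 (-0.0497). The replicate numbers did not pair the libraries (correlations of same-numbered libraries 0.020, -0.124 and 0.029); with the replicate block 4797 genes were called in C10 against C11 and all 69 named genes kept their call. Of the 4880 tested genes with the lowest scores (means of 5.0 to 9.3) 3.14% were called. Leaving out 1 library, given as genotype and replicate number, moved these list counts by over 1.5 times: erythroid late maturation losses from 8 to 5 (without WT 1), stem and progenitor gains from 5 to 3 (without KO 1), interferon losses from 2 to 1 (without WT 3), purine metabolism gains from 4 to 2 (without WT 1), cohesin and CTCF gains from 0 to 1 (without KO 1), p53 targets losses from 2 to 1 (without KO 1), DNA replication gains from 1 to 0 (without WT 1, WT 2, KO 1, KO 2, KO 3), mitosis gains from 2 to 1 (without WT 2) and 4 (without WT 3), mitosis losses from 4 to 2 (without WT 3, KO 2) and 1 (without KO 1), myeloid marker gains from 5 to 3 (without KO 1), myeloid marker losses from 0 to 1 (without WT 3), lymphoid marker losses from 0 to 1 (without WT 3), megakaryocyte marker losses from 1 to 2 (without WT 2), mast and basophil marker losses from 0 to 1 (without WT 3), endothelial and stromal marker gains from 2 to 1 (without WT 3, KO 2, KO 3).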

Other observations

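The differences were spread over the genome. On the autosomes 20.4% to 27.9% of tested genes were called. On the X chromosome, which carries Stag2, Gata1 and Gpc4, 36 of 476 tested genes rose and 51 fell, so 18.3% were called. The higher share of the called genes was 67.2% on chromosome 17, which holds the H2 genes of the major histocompatibility complex and Cdkn1a, and 41.4% on the X chromosome. The largest locus of neighbouring genes that rose held 15 genes, as did the largest that fell.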
